A study of Mus musculus with 40 samples.

Results

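The mature microRNAs (miRNAs) miR-139-5p and miR-139-3p (mmu-miR-139-5p and mmu-miR-139-3p in the count table, where the prefix marks the mouse) are the subject here, 2 of the 1978 mature miRNAs counted in the CA1 region of the mouse hippocampus. They were chosen by name because miR-139 was seen to rise between 3 and 6 months of age in these same libraries, so the age values below describe that choice and carry no test. The name held for 1 arm of the pair: miR-139-5p was higher at 6 months in both genotypes, and miR-139-3p was not.

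A miRNA gene is transcribed as a hairpin, and the enzymes Drosha and Dicer cut the hairpin to a short duplex of its 5′ arm (5p) and 3′ arm (3p). Usually 1 arm is kept preferentially by an Argonaute protein, where its seed, the stretch near the 5′ end, pairs with target mRNAs and lowers their stability or translation, while the other arm is mostly degraded. miR-139 is best known as a growth-restraining miRNA in tumours, and its gene lies within Pde2a, which encodes a phosphodiesterase that breaks down cyclic nucleotides and is abundant in forebrain neurons.

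Small RNA libraries came from CamKIIδC transgenic (TG) mice, which overexpress the C splice form of the calcium/calmodulin-dependent kinase IIδ and model heart failure, and from wild-type (WT) control littermates, all on a C57Bl/6J background. There were 9 TG and 5 WT libraries of 3-month-old mice, and 11 TG and 15 WT libraries of 6-month-old mice. Both sexes were used, the sex of each library was not given, and the promoter that drives the transgene was not stated in the sources used here. Libraries carry a number within their group and are called mice below, so a p-value measures only the spread between these libraries. The authors' small RNA figures give other numbers of TG mice at both ages. Whether each library is a separate mouse could therefore not be checked. The 3-month WT mice 1 and 2 are wild-type by title and TG by their genotype field. They were kept as WT, and values that move by over 1.5 times with them left out or counted as TG are given.

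miR-139 has a single annotated hairpin, shown in full so that the position of both arms can be seen. The sequences are from RefSeq on GRCm38.p6, written 5′ to 3′ as RNA. In the hairpin the capitals mark the 2 mature arms, and in the mature sequences they mark the seed (bases 2 to 8).
Mir139 hairpin: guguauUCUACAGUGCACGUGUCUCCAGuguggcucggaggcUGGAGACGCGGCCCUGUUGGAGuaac
miR-139-5p: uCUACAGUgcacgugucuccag
miR-139-3p: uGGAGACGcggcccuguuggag
The hairpin lies at chr7:101475376-101475443 on the plus strand, miR-139-5p at chr7:101475382-101475403 and miR-139-3p at chr7:101475418-101475439. In the Ensembl annotation of the same build, Mir139 (ENSMUSG00000065446) is intronic to Pde2a (ENSMUSG00000110195, chr7:101421691-101512827, plus strand). The hairpin is spanned by 10 of the 12 Pde2a transcripts, including all 4 coding ones, and overlaps an exon of 0 of them. The predicted coding gene Gm45837 (ENSMUSG00000030653, chr7:101410886-101512819, plus strand) covers the same position.

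The 2 seeds differ, so the arms are read here as separate molecules. Of the 1679 other counted miRNAs with a RefSeq sequence, 0 shared bases 2 to 8 with either arm and 1 shared bases 2 to 7 with miR-139-3p. It is shown for comparison, with its own bases 2 to 8 in capitals.
miR-6397: uGGAGACUuucaguggaguga
miR-6397 had a count in 1 of the 40 libraries. The arms also differed in base composition: the GC content was 54.5% for miR-139-5p and 68.2% for miR-139-3p, the latter above that of 95.9% of the 541 miRNAs with a sequence tested between ages in TG mice.

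The libraries held 2656368 to 36547011 counts, of which 1926108 to 22892729 were on miRNAs. The 3-month libraries were deeper, with median totals of 29499287 (TG) and 22455957 (WT) against 13894826 (TG) and 14908612 (WT) at 6 months. Both arms were well counted, since each library held 8310 to 107611 counts of miR-139-5p and 367 to 6582 of miR-139-3p, and 3 counts, the floor taken here, correspond to 0.131 to 1.56 CPM (counts scaled to 1000000 miRNA counts per library, with TMM factors for the levels below). Reads carried no molecular identifiers, so such floors cover counting error only. The tissue label was checked with 7 neuronal miRNAs, all present in every library and summing to 180033 to 321889 CPM without TMM factors. Of 4 cardiac and skeletal muscle miRNAs only the cardiac miR-208a-3p was at 0 in some libraries. These 4 summed to 274 to 1339 CPM, so muscle miRNAs were not absent.

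Over the 40 libraries miR-139-5p was the abundant arm. On the scale of mean TMM-normalized CPM, a level per mature miRNA that needs no length correction, it ranked 34 of 699 miRNAs kept, between miR-7b-5p (4938 CPM) and miR-708-3p (4589 CPM). miR-139-3p ranked 138, between miR-378d (260.1 CPM) and miR-410-3p (249.9 CPM). By group, the rank of miR-139-5p was 44 in 3-month TG, 37 in 3-month WT, 34 in 6-month WT and 33 in 6-month TG mice, whereas miR-139-3p ranked 126, 145, 143 and 138 in the same order. Ligation efficiency differs between small RNAs, so the order between miRNAs is that of read counts.

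miR-139-5p was lowest in the 3-month groups and highest in the 6-month groups. In the 5 WT mice at 3 months its level was 4840, 3283, 2151, 2645 and 5069 CPM for mice 1 to 5, and mice 1 and 5 stood above the others. In the 9 TG mice at 3 months the lowest, median and highest levels were 2367, 2986 and 4686 CPM, the highest in mouse 8. At 6 months they were 3631, 5443 and 6682 CPM in the 15 WT mice and 4093, 5677 and 6829 CPM in the 11 TG mice. The groups thus overlapped in part: in TG mice 10 of 11 libraries at 6 months lay above every 3-month library, and the overlap came from mouse 8 at 3 months and the lowest library at 6 months. In WT mice 11 of 15 libraries at 6 months lay above every 3-month library, and all 15 lay above the 3-month median.

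**Figure D1:**
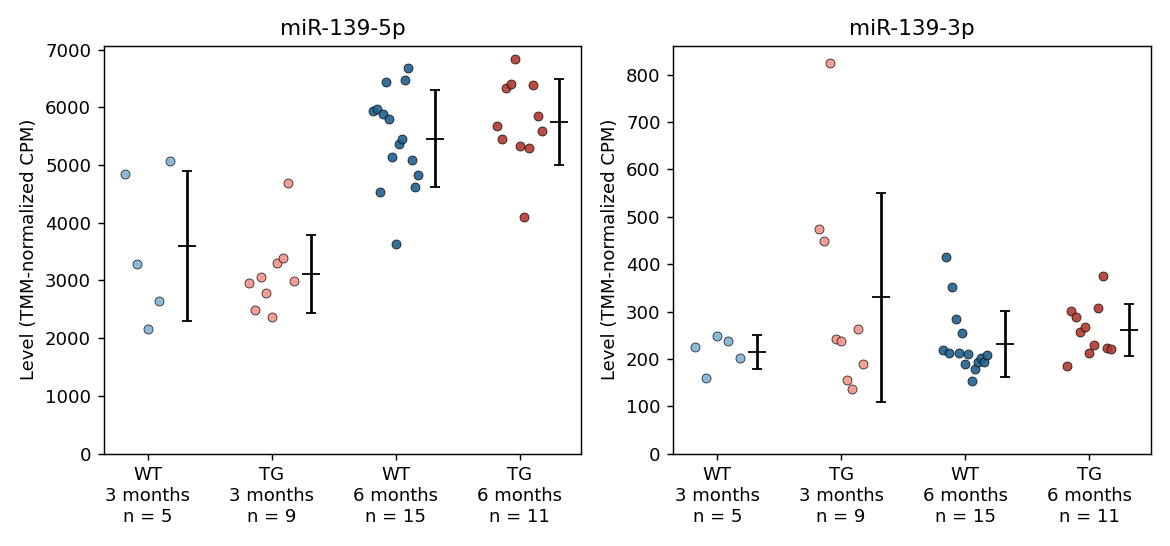
Level of each miR-139 arm in TMM-normalized CPM (y axes, linear from 0) by genotype and age (x axes), each point 1 library and the bar the mean ± SD. miR-139-5p is at 2151 to 5069 CPM in the 3-month libraries and 3631 to 6829 CPM in the 6-month libraries, whereas the miR-139-3p groups overlap throughout, with 1 TG library of 3-month-old mice at 825 CPM.

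Ordered by mean, miR-139-5p was at 3115 ± 677 CPM in 3-month TG (SD, n = 9), 3598 ± 1304 CPM in 3-month WT (n = 5), 5455 ± 838 CPM in 6-month WT (n = 15) and 5749 ± 749 CPM in 6-month TG mice (n = 11). The 3-month groups lay within each other's spread, and so did the 6-month groups. Between ages the fitted log2FC (6 over 3 months) was 0.90 (SE 0.13) in TG mice, a 1.87-fold higher level, and 0.59 (SE 0.18) in WT mice, a 1.51-fold higher level. In the edgeR quasi-likelihood fit 15.7% of 629 miRNAs were called between ages in TG mice (adjusted p under 0.05 and absolute log2FC above 0.26), 7.47% as higher and 8.27% as lower, and 0.152% of 660 in WT mice. At an unadjusted p under 0.05 the shares were 32.4% in TG and 15.5% in WT mice. These shares are given as background only, since the members were chosen on the same contrast. In bulk tissue, fewer cells of a type and less RNA per cell cannot be told apart.

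miR-139-3p did not follow the other arm. Its level at 3 months was 226, 159, 249, 238 and 202 CPM in WT mice 1 to 5, a narrow range. In 3-month TG mice the lowest, median and highest levels were 136, 242 and 825 CPM. The spread of that group rested on mice 1, 2 and 3, at 474, 450 and 825 CPM, while the other 6 lay between 136 and 263 CPM. At 6 months the same values were 153, 210 and 414 CPM in WT and 184, 256 and 375 CPM in TG mice. All 4 groups overlapped.

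The group means of miR-139-3p were 215 ± 35.6 CPM in 3-month WT (SD, n = 5), 232 ± 69.5 CPM in 6-month WT (n = 15), 261 ± 54.4 CPM in 6-month TG (n = 11) and 330 ± 221 CPM in 3-month TG mice (n = 9). No neighbours in this order were further apart than their spread. The log2FC between ages was -0.32 (SE 0.26) in TG mice and 0.10 (SE 0.20) in WT mice. Without 3-month TG mouse 3 the TG value was -0.02, and with WT mice 1 and 2 counted as TG it was -0.19. The WT value was 0.01 without WT mouse 2, and 0.04 without the 3 shallowest libraries.

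The balance between the arms was then taken within each library, as miR-139-5p counts per miR-139-3p count. This ratio does not depend on the scaling between libraries. In 3-month WT mice 1 to 5 it was 21.4, 20.6, 8.64, 11.1 and 25.0, with mice 3 and 4 well below the others. In 3-month TG mice the lowest, median and highest ratios were 3.72, 11.5 and 24.8, against 17.0, 25.0 and 30.8 in 6-month TG and 14.4, 23.8 and 36.1 in 6-month WT mice. All 11 TG mice at 6 months lay above the 3-month TG median, and 6 of them above every 3-month TG mouse. In WT mice 7 of 15 at 6 months lay above every 3-month mouse.

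**Figure D2:**
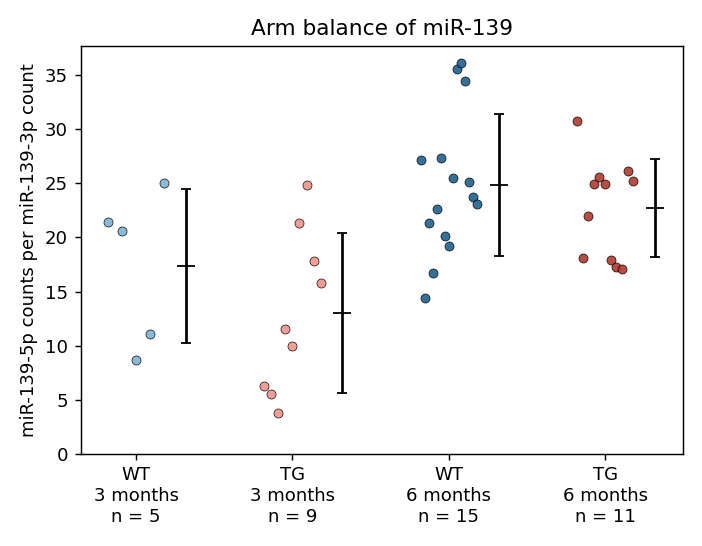
Counts of miR-139-5p per count of miR-139-3p (y axis, linear from 0) by genotype and age (x axis), each point 1 library and the bar the mean ± SD. The 3-month libraries spread from 3.72 to 25.0 and the 6-month libraries from 14.4 to 36.1.

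The mean ratio was 13.0 ± 7.42 in 3-month TG (SD, n = 9), 17.4 ± 7.10 in 3-month WT (n = 5), 22.7 ± 4.56 in 6-month TG (n = 11) and 24.9 ± 6.54 in 6-month WT mice (n = 15). The mean log2 ratio was higher at 6 months by 1.03 in TG mice (2.04-fold) and by 0.59 in WT mice, a description that follows from the choice of the members. The WT value was 0.36 without 3-month WT mouse 3 and 0.94 without WT mice 1 and 5. Put as the share of the minor arm, miR-139-3p made up 3.87 to 21.2% of the counts of both arms in 3-month TG mice and 2.69 to 6.49% in 6-month WT mice.

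Among the 80 hairpin names whose arms each averaged 10 CPM or more, the mean log2 ratio of miR-139 (4.23) ranked 14 from the highest, so miR-139 was among the more 5p-biased pairs. Its log2 ratio differed between ages by 1.03 in TG mice, rank 6 from the highest and rank 11 by size in either direction, where the median pair was at 0.12 and the 5th and 95th percentiles at -1.05 and 1.12. In WT mice the difference of 0.59 ranked 13 from the highest and 24 by size. Shifts of this size in either direction were therefore seen in other pairs too. The within-group SD of the log2 ratio was 0.63 for miR-139 and 0.61 for the median pair.

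**Figure D3:**
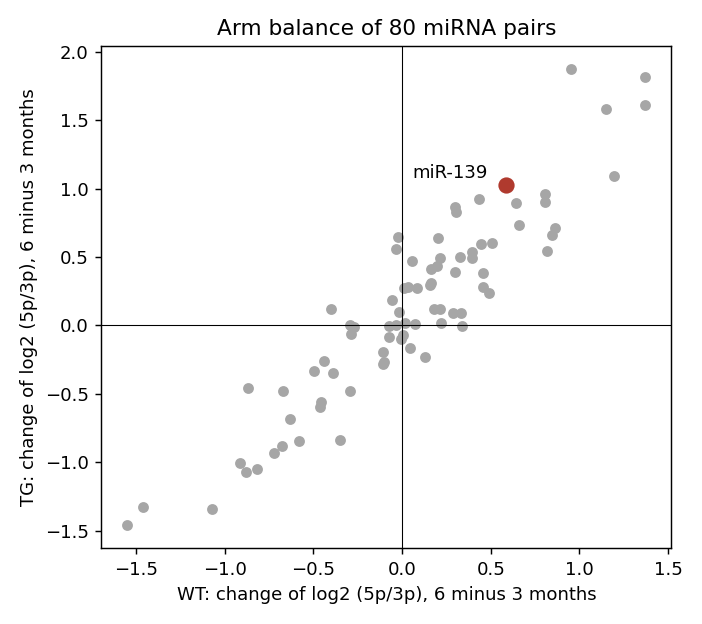
Change of the log2 ratio of 5p to 3p counts from 3 to 6 months in WT mice (x axis) and in TG mice (y axis), each point 1 of 80 hairpin names. miR-139 (red) is at 0.59 and 1.03, with 5 pairs above it on the TG axis.

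The age difference moved together with a part of the miRNA profile of the libraries. In a principal component analysis of 359 other miRNAs, the first component held 64.6% and the second 12.2% of the variance. On the first component the ages overlapped, with scores of -14.5 to 14.2 at 3 months and -9.22 to 20.7 at 6 months. On the second component 11 of the 14 libraries of 3-month-old mice (scores -10.3 to -3.07) lay below all 26 of 6-month-old mice (-0.28 to 5.02). The remaining 3, TG mouse 8 and WT mice 1 and 5, scored 1.81 to 3.13 and lay among the 6-month libraries. These 3 held 4686 to 5069 CPM of miR-139-5p and ratios of 17.8 to 25.0. The 11 others held 2151 to 3387 CPM (lowest 6-month level 3631 CPM) and ratios of 3.72 to 24.8. These 11 were set apart after the data were seen, and how many other miRNAs separate them from the 6-month libraries was not counted. Between the whole age groups 3 of 629 miRNAs (0.477%) in TG and 0 of 660 in WT mice did not overlap. In those groups miR-139-5p overlapped.

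**Figure D4:**
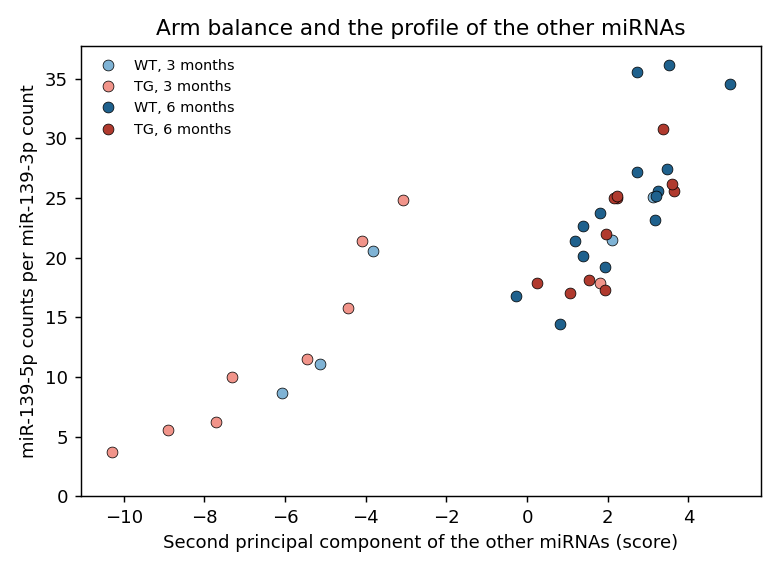
Counts of miR-139-5p per count of miR-139-3p (y axis) against the score on the second principal component of 359 other miRNAs (x axis), each point 1 library, coloured by genotype and age. The 11 libraries of 3-month-old mice at scores of -10.3 to -3.07 have ratios of 3.72 to 24.8, and 3 others lie among the 6-month libraries.

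Within the 11 separate 3-month libraries, TG mouse 3 had both the lowest score (-10.3) and the lowest ratio (3.72), and TG mouse 7 both the highest score (-3.07) and the highest ratio (24.8). With TG mouse 8 and WT mice 1 and 5 left out, the log2FC of miR-139-5p between ages was 0.99 in TG and 1.00 in WT mice. The labels give no library, sequencing or dissection batch, so age and an unrecorded batch cannot be told apart. The part of the library profile in the age values of miR-139 was not tested.

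The size of the age values also depended on the scaling. Spike-in reads made up a smaller share of the 3-month libraries (medians of 0.118% of counts in TG and 0.133% in WT mice) than of the 6-month libraries (0.152% and 0.166%). Scaled to the summed UniSp spike-ins, the log2FC of miR-139-5p was 0.20 in TG and 0.41 in WT mice, and that of miR-139-3p -0.73 and -0.25. That scaling moved the median log2FC of all tested miRNAs to -0.73 in TG (from -0.09) and to -0.30 in WT mice (from -0.02). Relative to this median, miR-139-5p was 0.93 (TG) and 0.71 (WT) higher at 6 months, against 0.99 and 0.61 under TMM. For miR-139-3p the distance from the median went from -0.23 under TMM to -0.0074 in TG mice, and from 0.12 to 0.05 in WT mice. A change of scaling acts on whole libraries, so the distance from the median is kept in part by construction. It is no check of either scaling. How the spike-ins were added was not given in the sources used here.

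**Figure D5:**
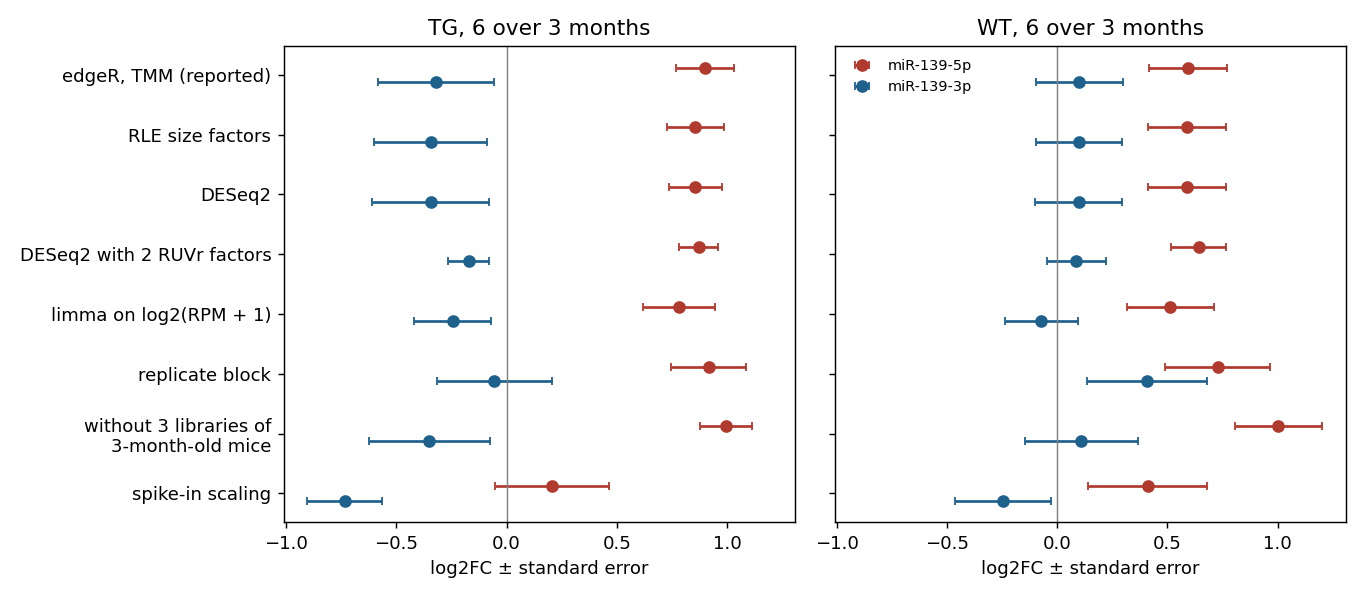
log2FC of miR-139-5p (red) and miR-139-3p (blue) between 6 and 3 months (x axes, bars the standard error) under 8 fits (y axis), in TG mice (left) and WT mice (right), 1 of which leaves out TG mouse 8 and WT mice 1 and 5 at 3 months. miR-139-5p lies above 0 in every row, from 0.20 to 0.92 in TG and 0.41 to 0.73 in WT mice with all libraries, and at 0.99 and 1.00 without those 3, whereas miR-139-3p lies on both sides of 0 in WT mice.

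The question of the genotype, which the choice of members did not use, was tested within each age. At 3 months miR-139-5p had a log2FC (TG over WT) of -0.25 (SE 0.22, 95% confidence interval -0.72 to 0.22) with an adjusted p of 0.998 in the edgeR quasi-likelihood test. miR-139-3p had a log2FC of 0.52 (SE 0.34, interval -0.19 to 1.24) with an adjusted p of 0.998 in the same edgeR test. Neither of the 2 members was called, and neither were any of the 695 miRNAs tested (0%), with 7 (1.01%) at an unadjusted p under 0.05. In TG mice 4 of 9 libraries held more miR-139-3p than every WT library and 2 held less, so the groups overlapped in both directions. Without TG mouse 3 the log2FC of miR-139-3p was 0.30. With 2 factors of unwanted variation removed in DESeq2 (RUVr), miR-139-3p was called higher in TG mice (log2FC 0.42, DESeq2 adjusted p 0.0016), in a fit that called 85 of the 695 miRNAs.

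The direction for miR-139-5p at 3 months rested on the libraries used. Without TG mouse 8 and WT mice 1 and 5 its log2FC was 0.06, with WT mice 1 and 2 counted as TG it was 0.0033, and with spike-in scaling 0.15. It was -0.11 without WT mice 1 and 2, -0.12 without WT mouse 1, -0.09 without WT mouse 5 and -0.38 without WT mouse 3, and was not called in any of these fits. At 6 months the intervals were narrower. The log2FC of miR-139-5p was 0.06 (SE 0.10, interval -0.14 to 0.26) and that of miR-139-3p 0.15 (SE 0.15, interval -0.15 to 0.45), both at an adjusted p of 0.992 in edgeR. None of the 612 miRNAs tested was called (0%), with 3 (0.49%) at an unadjusted p under 0.05.

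The difference between the age effects of the 2 genotypes was tested as an interaction over all 4 groups. It is built from the same age contrasts that chose the members and shares their libraries. The interaction was 0.28 (SE 0.21, interval -0.13 to 0.70) for miR-139-5p and -0.45 (SE 0.35, interval -1.15 to 0.25) for miR-139-3p on the log2 scale, both at an adjusted p of 0.986 in edgeR. None of the 699 miRNAs was called (0%), with 14 (2%) at an unadjusted p under 0.05. The larger age value of miR-139-5p in TG mice is thus not shown to differ from that in WT mice, and without TG mouse 8 and WT mice 1 and 5 the interaction was -0.03. It was 0.14 without WT mice 1 and 2, 0.06 with them as TG, 0.16 without WT mouse 1 and 0.13 without WT mouse 5. For miR-139-3p the interaction was -0.15 without 3-month TG mouse 3 and -0.25 with WT mice 1 and 2 as TG.

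The arm balance was also compared between genotypes. At 3 months the mean log2 ratio of 5p to 3p was 3.45 ± 0.95 in TG (SD, n = 9) and 4.00 ± 0.67 in WT mice (n = 5), a difference of -0.55 (SE 0.48, two-sided exact permutation test p = 0.274, adjusted over the 2 ages 0.436). The difference was -0.36 without TG mouse 3 and -0.29 either without WT mice 1 and 2 or without TG mouse 8 and WT mice 1 and 5. At 6 months the mean log2 ratio was 4.48 ± 0.29 in TG (n = 11) and 4.59 ± 0.38 in WT mice (n = 15), a difference of -0.11 (SE 0.14, two-sided permutation test p = 0.436, adjusted 0.436). Neither difference exceeded the spread between mice.

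The 2 arms come from the same hairpin, and whether they varied together between mice was asked within each group of at least 6 mice. On log2 TMM-normalized CPM, Pearson's r was 0.28 in 6-month WT mice (n = 15, permutation p = 0.302, adjusted over 3 groups 0.479), and Spearman's rho was 0.18 (permutation p = 0.516, adjusted 0.595). Without the 2 mice farthest from the median of miR-139-5p, r was 0.33. These 15 mice spread from -9.22 to 20.7 on the first principal component, and the pooled value is not read as a relation.

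In both TG groups the libraries fell into separate clusters on the first principal component, so no pooled value is read there. At 3 months 4 mice (1, 2, 3 and 8) scored 4.48 to 14.2 and 5 scored -14.5 to -9.05, and at 6 months 6 mice scored 4.75 to 16.5 and 5 scored -6.53 to -2.70. Within the cluster of 6, Pearson's r was 0.19 (exact permutation p = 0.751) and Spearman's rho -0.20 (exact permutation p = 0.714). Pearson's r in that cluster was 0.84 with the 2 mice farthest from the median of miR-139-5p left out, on 4 mice. The other TG clusters held fewer than 6 mice, too few for a correlation of their own.

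At 3 months the levels of miR-139-3p in the TG clusters depended on the scale. The clusters were read from the first principal component, which held 64.6% of the variance of 359 other miRNAs. How many other miRNAs separate the same clusters was not counted, so a gap between them is no result about miR-139-3p. The cluster of 4 held 263 to 825 CPM of miR-139-3p and TMM factors of 0.63 to 0.89, and the cluster of 5 held 136 to 242 CPM and factors of 1.23 to 1.37. Their miR-139-5p levels overlapped, at 2495 to 4686 and 2367 to 3387 CPM. On the deposited RPM, reads scaled to 1000000 per library, which carry no such factor, miR-139-3p in these 9 mice ranged from 117 to 347 RPM and miR-139-5p from 1290 to 2906 RPM. In RPM the clusters overlapped in miR-139-3p: mouse 8 of the cluster of 4 was at 157 RPM, and the cluster of 5 held 117 to 192 RPM. Mouse 3 had the least miR-139-5p and the most miR-139-3p in RPM, and mouse 7 the reverse. At 6 months the TMM factors were 0.74 to 0.85 in the cluster of 6 and 1.00 to 1.15 in the cluster of 5, with 184 to 375 and 213 to 267 CPM of miR-139-3p.

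The miRNAs whose level followed each arm most closely were sought among 360 miRNAs that averaged 10 CPM or more, as the Pearson r of log2 CPM centred on each group's mean over the 40 libraries, a description across libraries that share depth and scaling. For miR-139-5p these were miR-149-5p (r = 0.85), miR-132-5p (0.78), miR-425-5p (0.76), miR-340-3p (0.70) and miR-331-5p (0.69). For miR-139-3p they were miR-423-5p (0.93), miR-320-3p (0.89), let-7a-5p (0.89), miR-128-2-5p (0.88) and let-7c-5p (0.88). The lists share no miRNA. The 2 arms with each other stood at r = -0.0071, place 184 of 360. The age log2FC of the neighbours differed between the lists in TG mice, at 0.53 to 0.89 for those of miR-139-5p and -0.43 to -0.06 for those of miR-139-3p. In WT mice the lists overlapped, at 0.12 to 0.55 and -0.12 to 0.27.

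As a wider setting for an intronic miRNA, 21 miRNAs that lie in introns of host genes expressed in brain were followed, all of them tested. Between ages in TG mice 3 were called higher and 4 lower, against a background of 15.7% called, and the median log2FC was -0.19 against -0.09 over all miRNAs tested. The 3 higher were miR-128-3p (log2FC 0.73, SE 0.21, edgeR adjusted p 0.021), a neuronal miRNA of the R3hdm1 and Arpp21 genes, miR-149-5p (0.71, SE 0.15, adjusted p 0.0021), of the proteoglycan gene Gpc1, and miR-218-5p (0.55, SE 0.16, adjusted p 0.021), of the axon guidance genes Slit2 and Slit3. Among the 4 lower, the 3 with the largest log2FC were miR-190a-5p of Tln2 (-1.38), miR-338-3p of Aatk (-1.02), which is enriched in oligodendrocytes, and miR-326-3p of Arrb1 (-0.68). In WT mice 0 of the 21 were called and the median was -0.20 against -0.02. Between genotypes 0 of the 21 were called at either age or in the interaction. Intronic position was thus shared by miRNAs that moved in both directions.

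Marker miRNAs of the cell types in or near the tissue were followed between ages in TG mice, where 15.7% of all miRNAs tested were called, 7.47% as higher and 8.27% as lower. Of 7 neuronal miRNAs 2 were called higher (miR-128-3p and miR-218-5p) and 0 lower, 4 had a log2FC above 0 and 3 below it, among them miR-124-3p (-0.66) and miR-137-3p (-0.69), and the summed level of the list was 180033 to 302110 CPM at 3 months and 244595 to 321889 CPM at 6 months. Of 3 oligodendrocyte miRNAs 2 were lower (miR-338-3p, log2FC -1.02, and miR-219a-2-3p, -0.57), with summed levels of 1112 to 2843 CPM at 3 months and 629 to 1450 CPM at 6 months. Of 4 choroid plexus and ependyma miRNAs 2 were higher (miR-204-5p, log2FC 0.89, and miR-211-5p, 1.07) and the other 2 were not called (miR-449a-5p, -0.86, and miR-34c-5p, -0.04), with sums of 331 to 865 and 614 to 1177 CPM. Of 4 endothelial and mural miRNAs 1 was higher (miR-126a-3p, log2FC 0.73), with sums of 7597 to 16279 and 14251 to 16332 CPM. The others were not called (miR-143-3p, 0.28, miR-145a-5p, 0.03, and miR-126a-5p, the other arm of the same hairpin, -0.33). Of 3 tested muscle miRNAs 1 was lower (miR-1a-3p, log2FC -0.80), with sums of 590 to 1339 and 433 to 655 CPM. The others were not called (miR-133a-3p, -1.14, and miR-499-5p, 0.04). Of 3 erythroid miRNAs 1 was higher (miR-451a, log2FC 0.68) and 1 lower (miR-144-3p, -0.98), with sums of 594 to 863 and 610 to 895 CPM. Of 5 microglial and leukocyte miRNAs 0 were called, with sums of 151 to 490 and 193 to 751 CPM. The defining markers miR-219a-5p, miR-223-3p, miR-449a-5p, miR-144-3p and miR-208a-3p were at 0 in some libraries. In WT mice 0 of these markers were called, against 0.152% of all miRNAs. The summed levels are CPM without TMM factors, unlike the fits that gave the log2FC. The part of these markers in the age values of miR-139 was not tested.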

How the data were processed

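RNA of the CA1 region was made into libraries with the NEBNext small RNA kit and sequenced on an Illumina HiSeq. The authors converted and trimmed the reads (bcl2fastq, cutadapt 2.8 in the submitters' processing notes), checked them with FastQC, aligned them to mm10 with miRDeep2 and quantified them against miRBase. The deposited values are raw read counts and RPM (reads scaled to 1000000 per library) for each mature miRNA and precursor, with UniSp spike-ins, for 40 libraries, and 0 columns were without a sample. The deposited RPM equalled counts scaled to the library total within rounding. Where a miRNA had several precursor rows, the row with the highest total was used.

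The raw counts were fitted with edgeR 4.0.16 in R 4.3.3 (filterByExpr with a count minimum of 10, TMM scaling, robust quasi-likelihood F test, Benjamini-Hochberg adjustment over all miRNAs tested), with each comparison fitted on its own groups and the interaction on all 4. A miRNA was called at an adjusted p under 0.05 with an absolute log2FC above 0.26. Levels are TMM-normalized CPM over all 40 libraries, apart from the summed levels of the marker lists, which are CPM without TMM factors. The log2 CPM has a prior count of 2. Permutation tests of the arm balance and the correlations were exact where a group held fewer than 10 mice and otherwise drew 100000 resamples (scipy 1.17.1). DESeq2 1.42.0 and limma 3.58.1, on log2(RPM + 1), were alternatives, and the method was tested on simulated data. Libraries were compared pairwise within groups (206 pairs), and none agreed within sampling noise. Same-numbered mice of different groups deviated together in some pairs and not in others. What the numbers follow was not given, and they were used as names.

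The members and lists were chosen with earlier results of these data known. Named are both arms, their neighbours in level, the 5 miRNAs most like each, those that share a seed, and at most 6 intronic miRNAs. The marker miRNAs named with values were chosen after their values were seen. Groups follow the titles. The sequences of 2 of the 2 members were matched by name.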

Additional observations from a re-analysis of the deposited data

Results flagged for a closer look

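Among the 6 combinations of group and quantity examined in the 3-month groups (level of each arm and their ratio in 5 WT and 9 TG mice), 2 had a single library far from the others by Dixon's criterion at the 95% level, which flags about 1 in 20 by chance. miR-139-5p was highest in 3-month TG mouse 8, at 4686 CPM, where the next mouse was at 3387 CPM. The gap was 0.560 of the range of the group, against a critical value of 0.493. The same library lay among the 6-month libraries on the second principal component of the other miRNAs. miR-139-3p was highest in 3-month TG mouse 3, at 825 CPM, where the next mouse was at 474 CPM. Here the gap was 0.509 of the range, against 0.493. That library had a TMM factor of 0.63 and 347 RPM of miR-139-3p, which was also the highest of its group.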

How the results depend on the processing

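The age log2FC of miR-139-5p stayed above 0 in both genotypes under every alternative run, from 0.20 (spike-in scaling) to 0.99 in TG mice and from 0.41 to 1.00 (without 3-month TG mouse 8 and WT mice 1 and 5, chosen after seeing the data) in WT mice. The age log2FC of miR-139-3p stayed below 0 in TG mice, from -0.73 to -0.02, and in WT mice fell below 0 with spike-in scaling (-0.25), limma on log2(RPM + 1) (-0.072) and WT mice 1 and 2 left out or counted as TG (-0.0020 each). At 3 months the genotype log2FC of miR-139-5p turned positive with spike-in scaling (0.15), with mice 1 and 2 as TG (0.0033) and without the 3 libraries (0.060), and at 6 months negative with spike-in scaling (-0.058) and limma (-0.031). Its interaction turned negative with spike-in scaling (-0.21) and without the 3 libraries (-0.035). miR-139-3p at 3 months was called with 2 RUVr factors in DESeq2 (0.42).

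Counts of called miRNAs depended more on the setting. With 2 RUVr factors they were 85 and 4 between genotypes at 3 and 6 months, 5 in the interaction, and 312 (TG) and 219 (WT) between ages, against 0, 0, 0, 99 and 1. Spike-in scaling gave 266 (TG) and 2 (WT). In WT mice DESeq2 gave 15, limma 0, the fit without the 3 libraries 46 and leaving out 1 WT mouse 0 to 4 (0 without mouse 2, 3 or 4, and 4 without mouse 1 or 5). Leaving out 1 TG mouse at 3 months gave 72 to 131 in TG mice. The cause of these differences was not tested.

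A fit that took the mouse number as a replicate block called 124 miRNAs between ages in TG and 250 in WT mice, and 0 in the other comparisons. The age log2FC of miR-139-5p was then 0.92 (TG) and 0.73 (WT). Same-numbered mice were not taken as pairs. Between ages in TG mice their deviations correlated above 0.1 in 7 of 9 pairs. There 3 of 18 mice correlated best with their own number. Between ages in WT mice the values were 2 of 5 pairs and 1 of 10 mice. Between genotypes they were 9 of 11 pairs and 4 of 22 mice at 6 months, and 2 of 5 and 2 of 10 at 3 months. Mice 1 to 5 (6-month WT), 1 to 4 (6-month TG) and 1 to 3 (3-month TG) scored above 0 on the first principal component. So did some higher-numbered mice. Whether the numbers follow a property of the libraries was not tested.

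The correlation of the arms in 3-month TG mice was -0.20 on TMM-normalized CPM (exact permutation p = 0.598) and -0.93 on log2(RPM + 1) (exact permutation p = 0.00016, adjusted 0.00048 over 3 groups). In 6-month TG mice it was 0.33 (n = 11, permutation p = 0.319) and, within the cluster of 6 mice, 0.19, an alternative chosen after seeing the data. The mice of both TG groups lay in separate clusters on the first principal component. Those of the 6-month WT group spread from -9.22 to 20.7 on it, and no pooled value is read as a relation.

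Limits are the 5 WT mice at 3 months, of which 2 have labels that conflict, the unequal depth of the ages, and the lack of any recorded batch. Leaving out the 3 shallowest 6-month libraries, also chosen after seeing the data, changed no call of either arm.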
